A study of Homo sapiens with 6 samples.

Results

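F-box proteins are the substrate receptors of cullin 1 ubiquitin ligases, and their transcripts were followed here in SK-Hep1 cells given an oligonucleotide against miR-21. Members were all probe sets that list 1 gene whose symbol starts with FBXO, FBXL or FBXW, or is SKP1, SKP2, CUL1, BTRC or CCNF. The rule found 163 probe sets of 67 genes, among 54675 probe sets and 19775 singly named genes on the array, and 94 of them, from 50 genes, had a mean log2 value over the 6 arrays of at least 4 and were counted as expressed. A further 4 probe sets that list a member together with another gene were left out.

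SK-Hep1 is an established human cell line from a patient with a liver tumour. A day after plating (24 hours), cells underwent lipofection, either with 20 nM of anti-miR-21 or as a mock treatment with PBS that carried no oligonucleotide, and RNA was taken 16 hours later. Each group held 3 arrays, 1 per sample, labelled as biological replicates. The mock group therefore had no control oligonucleotide, the line is a single line, and the protocol for harvest cites an Argonaute pull-down although the samples are labelled as total RNA. Values are GCRMA log2 expression as deposited, each log2 fold change subtracts mock from anti-miR-21, and a probe set was called when limma's Benjamini-Hochberg adjusted p over all 22408 expressed probe sets was under 0.05.

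In an SCF ligase, the scaffold CUL1 carries a RING protein at one end and SKP1 at the other, and SKP1 holds an F-box protein that picks the substrate, often through a phosphorylated motif. Receptors with WD40 repeats are named FBXW, those with leucine-rich repeats FBXL, and the rest FBXO. The ligase is switched on when NEDD8 is joined to the cullin and off when the COP9 signalosome removes it. In cultured tumour cells these ligases are best known for the timed removal of cell cycle proteins and for the signal-driven removal of NF-κB inhibitors and β-catenin.

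The oligonucleotide is directed at the mature microRNA below, printed from RefSeq (GRCh38.p14, chr17:59841273-59841294, plus strand) because its seed, bases 2 to 8 in capitals, is the part that pairs with target messengers.

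hsa-miR-21-5p: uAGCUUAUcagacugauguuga

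Of the 94 expressed member probe sets, 3 were higher and 1 was lower with anti-miR-21, and 90 were not called. The 3 higher probe sets were all those of SKP2, and the lower one was that of FBXO4. Among all expressed probe sets 2.17% were called, 1.10% higher and 1.07% lower, against 3.19% and 1.06% of the members in those directions. Counted by gene, with the brightest probe set as the representative, 1 of 50 genes was higher and 1 was lower, where 0.913% and 1.22% of all 10848 genes were called in those directions. The plot of members among all expressed probe sets shows both genes at the edge of an otherwise narrow band.

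**Figure D1:**
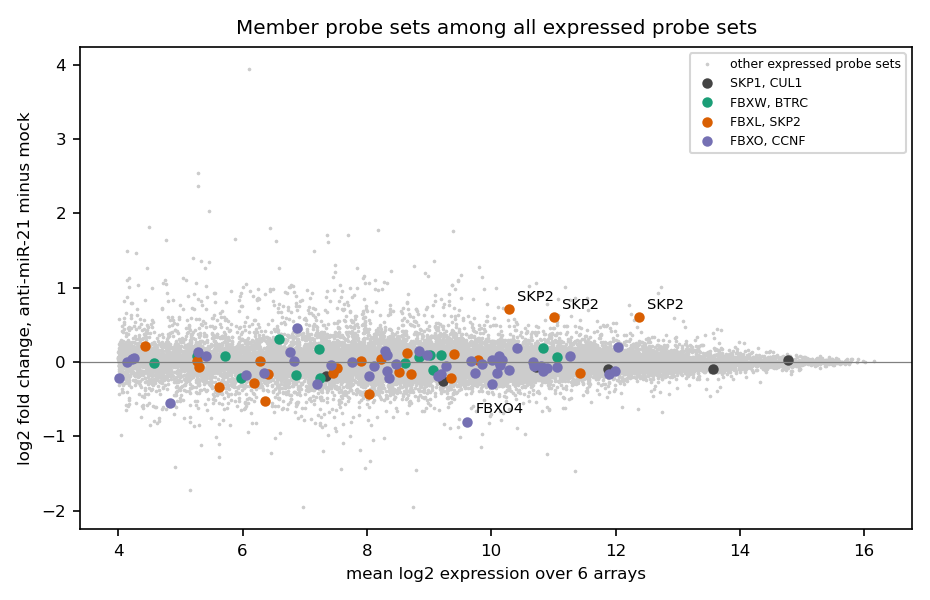
Log2 fold change (anti-miR-21 minus mock) against mean log2 expression over 6 arrays for each expressed probe set, with members coloured by family and other probe sets in grey. The 3 SKP2 probe sets lie at 0.60 to 0.71 and FBXO4 at -0.80, and the other members lie between -0.55 and 0.46.

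SKP2 is the leucine-rich receptor that, with the small protein CKS1B, recognises the cyclin-dependent kinase inhibitor CDKN1B. Its brightest probe set, 203625_x_at, read 12.07, 12.13 and 12.00 in the mock arrays and 12.72, 12.63 and 12.67 in the anti-miR-21 arrays. Probe set 210567_s_at read 10.75, 10.77 and 10.61 in mock and 11.32, 11.30 and 11.30 with anti-miR-21. Probe set 203626_s_at read 9.88, 9.96 and 9.94 in mock and 10.71, 10.58 and 10.64 with anti-miR-21. In each of the 3 probe sets every treated array lay above every mock array, with a gap several times the spread within either group, and anti-miR-21 replicate 1 was the highest.

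The rise of SKP2 was 1.52-fold on the representative, or 0.61 ± 0.056 in log2 units (SE, n = 3 per group, limma adjusted p = 0.0069). For 210567_s_at it was 1.51-fold (0.60 ± 0.059, limma adjusted p = 0.00837) and for 203626_s_at 1.64-fold (0.71 ± 0.056, limma adjusted p = 0.0038). All 3 stayed called with any 1 array left out. With a term for replicate number in the model, 203626_s_at stayed called (limma adjusted p = 0.0466). The representative and 210567_s_at then missed the threshold (limma adjusted p = 0.0554 each). All 3 also carry a suffix that marks probes shared between transcripts (s) or able to bind unrelated ones (x, on the representative), so no SKP2 probe set of the unshared type was there to set beside them. In RNA from bulk cells, more cells in one state and more RNA per cell cannot be told apart.

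FBXO4 is an F-box protein reported to recognise cyclin D1 and the telomere protein TRF1. Its expressed probe set, 223493_at, is of the unshared type and read 10.00, 10.04 and 9.99 in the mock arrays and 9.25, 9.25 and 9.13 in the anti-miR-21 arrays. The groups were far apart, and all 3 treated arrays lay close together. FBXO4 fell 1.75-fold, or -0.80 ± 0.055 in log2 units (SE, n = 3 per group, limma adjusted p = 0.00249), and it stayed called with any 1 array left out. The other 2 FBXO4 probe sets were dim, at means of 2.96 and 2.67, and were not tested, so the fall rests on 1 probe set.

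**Figure D2:**
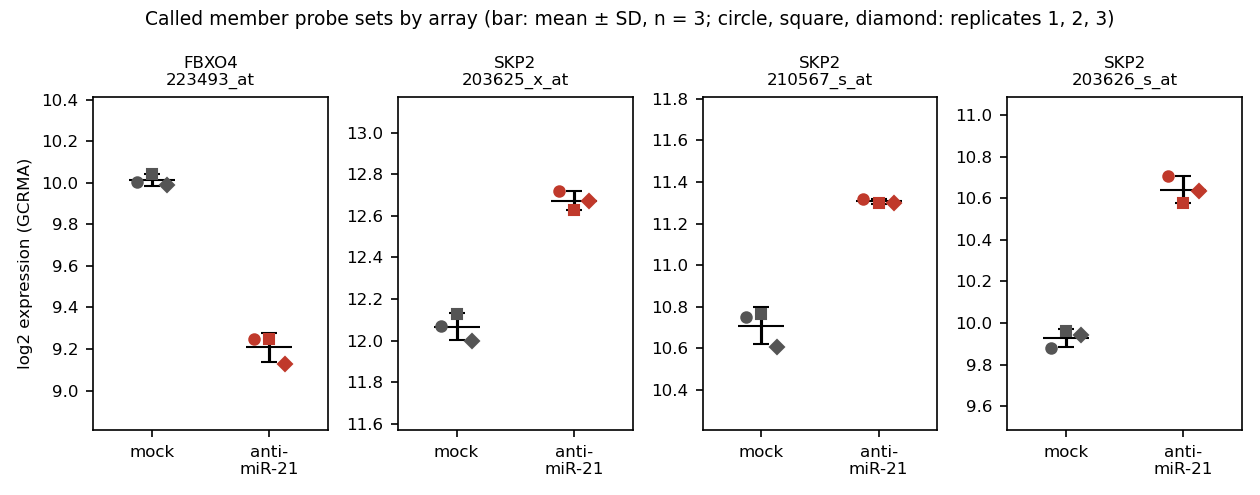
Log2 expression of the 4 called member probe sets in each array, with mock in grey and anti-miR-21 in red, replicates 1, 2 and 3 as circle, square and diamond, and bars for the mean and SD over 3 arrays; each panel spans the same log2 range around its own level. FBXO4 moved from 10.01 to 9.21 and the SKP2 representative from 12.07 to 12.67, with no overlap in any panel.

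The 250 bases before the annotated start of each of these genes are printed because they are the members whose transcripts changed (RefSeq, GRCh38.p14, 5′ to 3′, both on the plus strand). Capitals mark the GC box, searched as GGGCGG on both strands, the one motif of 8 searched that was found. The window of SKP2 is chr5:36151861-36152110 and that of FBXO4 is chr5:41925031-41925280.

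SKP2: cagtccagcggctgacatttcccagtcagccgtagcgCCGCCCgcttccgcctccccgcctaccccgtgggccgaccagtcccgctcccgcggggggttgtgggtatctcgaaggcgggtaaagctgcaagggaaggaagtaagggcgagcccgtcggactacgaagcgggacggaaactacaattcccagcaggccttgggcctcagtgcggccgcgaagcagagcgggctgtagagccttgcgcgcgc
FBXO4: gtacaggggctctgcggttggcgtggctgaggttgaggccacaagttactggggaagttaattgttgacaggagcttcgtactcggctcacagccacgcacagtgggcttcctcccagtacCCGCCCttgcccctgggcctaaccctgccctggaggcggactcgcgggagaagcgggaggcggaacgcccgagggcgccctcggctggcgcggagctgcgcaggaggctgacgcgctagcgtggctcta

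Each window held 1 GC box, on the minus strand, at 213 to 208 bases before the start in SKP2 and at 129 to 124 in FBXO4. That motif was present in 42.6% of all 35116 promoter windows of the same length. The other letters searched, on both strands, were the E2F forms TTTGGCGC (0.55% of all windows) and TTTCCCGC (1.39%), ETS CCGGAAG (8.52%), the E-box CACGTG (6.34%), CCAAT (32%), the cell cycle element CHR TTTGAA (13.3%) and CRE TGACGTCA (1.65%), and none was in either window. No 2 of these motifs overlapped in the windows shown.

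The core subunits were not called. SKP1, the adaptor that joins F-box proteins to the ligase, had 4 expressed probe sets. The brightest read 14.77, 14.75 and 14.76 in mock and 14.76, 14.81 and 14.78 with anti-miR-21, a log2 difference of 0.03 with a 95% interval of -0.08 to 0.13. The dimmest, 200719_at, read 9.22, 9.40 and 9.42 in mock and 9.19, 9.02 and 9.08 with anti-miR-21, a difference of -0.25 with an interval of -0.44 to -0.07 (limma adjusted p = 0.153). The intervals of these 2 SKP1 probe sets overlap only narrowly, from -0.08 to -0.07. The other 2 had differences of -0.09 each, so the brightest alone was positive. CUL1, the scaffold, read 10.77, 10.78 and 10.74 in mock and 10.71, 10.71 and 10.65 with anti-miR-21 on its brightest probe set, a difference of -0.07 with an interval of -0.19 to 0.04 (limma adjusted p = 0.471).

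Among the WD40 receptors, none of 9 expressed genes was called and 6 had a positive log2 fold change. FBXW2 had the smallest p among the representatives of this family. Its representative read 10.78, 10.78 and 10.66 in mock and 10.88, 11.01 and 10.90 with anti-miR-21, a difference of 0.19 ± 0.062 (SE, limma adjusted p = 0.18). A dimmer FBXW2 probe set, 235195_at, had 0.30 ± 0.076 (SE, limma adjusted p = 0.106), and the third had 0.09, so all 3 were positive without a call. FBXW9 had -0.21 on its 1 expressed probe set (limma adjusted p = 0.221).

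BTRC and FBXW11, the paired β-TrCP receptors that bind phosphorylated NF-κB inhibitors and β-catenin, had representatives at 0.07 (95% interval -0.04 to 0.18) and 0.06 (-0.08 to 0.20). BTRC's own 3 expressed probe sets differed in sign, with none called. Its representative read 8.77, 8.80 and 8.83 in mock and 8.88, 8.86 and 8.87 with anti-miR-21, while 204901_at read 6.10, 6.06 and 6.09 in mock and 5.83, 5.94 and 5.84 with anti-miR-21. The arrays did not overlap in either, with opposite signs, and neither passed (limma adjusted p = 0.48 and 0.0992). Arrays did not overlap for 24.0% of all expressed probe sets. The remaining BTRC probe set, 216091_s_at, had -0.02 with overlapping arrays (limma adjusted p = 0.882). FBXW7, the receptor for cyclin E, MYC and NOTCH proteins, had 2 expressed probe sets, at 0.18 and -0.18 (limma adjusted p = 0.392 and 0.503).

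Among the leucine-rich receptors, SKP2 was the 1 called of 14 expressed genes, and 8 had a negative log2 fold change. FBXL19, which carries a CXXC zinc finger that binds CpG-rich DNA, read 5.72, 5.71 and 5.92 in mock and 5.66, 5.22 and 5.48 with anti-miR-21, a difference of -0.33 ± 0.119 (SE, limma adjusted p = 0.217). FBXL18 had -0.16 and a second probe set at 0.03 (limma adjusted p = 0.275 and 0.905). FBXL4, a mitochondrial F-box protein that restrains mitophagy, had 3 expressed probe sets with negative values, at -0.14, -0.28 and -0.52 (limma adjusted p = 0.299, 0.309 and 0.305). Both expressed probe sets of the iron sensor FBXL5, named after its values were seen, were also negative, at -0.15 and -0.43 (limma adjusted p = 0.372 and 0.229).

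Among the FBXO genes and CCNF, FBXO4 was the 1 called of 25 expressed genes, and 7 had a positive log2 fold change. CCNF, cyclin F, is the F-box protein after which the family was named, and removes the ribonucleotide reductase subunit RRM2 and the centriole protein CCP110. Its representative read 10.16, 10.13 and 10.18 in mock and 9.99, 9.72 and 9.88 with anti-miR-21. The arrays did not overlap, and the treated arrays were spread more widely than the mock arrays. The difference was -0.29 ± 0.075 (SE, limma adjusted p = 0.113), with a second probe set at -0.05 (limma adjusted p = 0.687).

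FBXO5 (EMI1), which carries an F-box yet is best known as an inhibitor of the anaphase-promoting complex, read 12.13, 11.96 and 11.76 in mock and 12.11, 12.23 and 12.10 with anti-miR-21. The groups overlapped, and the difference was 0.19 ± 0.098 (SE, limma adjusted p = 0.359). FBXO6, which recognises glycans on proteins returned from the endoplasmic reticulum, read 8.49, 8.41 and 8.53 in mock and 8.33, 8.21 and 8.23 with anti-miR-21, a difference of -0.22 ± 0.059 (SE, limma adjusted p = 0.122). FBXO16, a dim gene, read 4.92, 5.23 and 5.16 in mock and 4.97, 4.08 and 4.61 with anti-miR-21, so the groups overlapped. Its difference was -0.55 with a 95% interval of -1.06 to -0.04 (limma adjusted p = 0.254), and it was -0.31 when treated replicate 2 was left out.

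**Figure D3:**
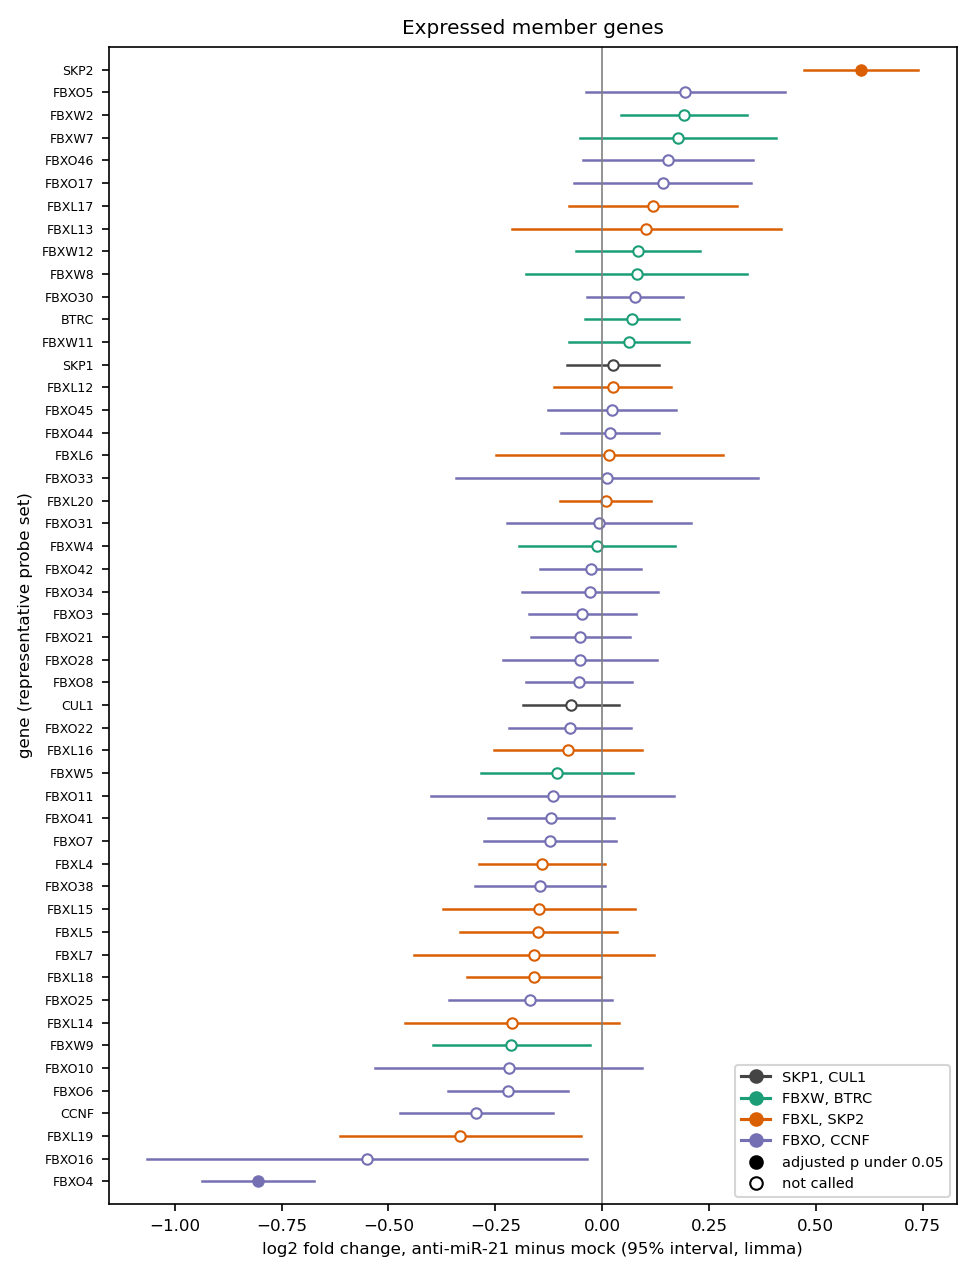
Log2 fold change with its 95% interval (limma, 3 arrays per group) for the representative probe set of each of the 50 expressed member genes, ordered by value and coloured by family; filled points passed an adjusted p of 0.05. SKP2 at 0.61 and FBXO4 at -0.80 are the highest and the lowest values, and the wide interval of FBXO16, from -1.06 to -0.04, takes in that of FBXO4.

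For most of the family the representative probe set bound the change to under 1.5-fold, a limit near the 1.52-fold rise called for SKP2. Of the 48 genes not called, 46 had a 95% interval on that probe set that lay within 1.5-fold in both directions. The other 2 were FBXL19 and FBXO16. The intervals were not adjusted for the number of genes, and smaller changes can lie within them. Of the 90 probe sets not called, 83 had such an interval, and the intervals of the remaining 7 reached 1.5-fold. Among those 7 were dimmer probe sets of FBXL4, FBXL5, FBXO28, FBXO31 and CUL1, so these genes are bounded less tightly there. The median log2 fold change of the 50 genes was -0.05, beside -0.02 over all genes tested, and 20 of the 50 were positive, beside 43.3% of all genes. Over probe sets, 78.7% of members moved by less than 0.2 on the log2 scale, beside 81.3% of all. The arrays of the groups did not overlap for 8 member probe sets on the higher side and 16 on the lower side, 25.5% in all, beside 11.4% and 12.6% of all expressed probe sets, 24.0% in all. Those shares are near the background.

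A gene with several probe sets gives a view of how far the readings of 1 gene differ among themselves. Whether its probe sets read the same transcripts was not tested. Of 27 member genes with 2 or more expressed probe sets, 6 had all positive values, 8 had all negative values and 13 were mixed. The SKP2 values lay within 0.60 to 0.71. In contrast, the 5 probe sets of FBXO28, a gene named after its values were seen, ran from -0.05 on the brightest to 0.46, with none called.

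**Figure D4:**
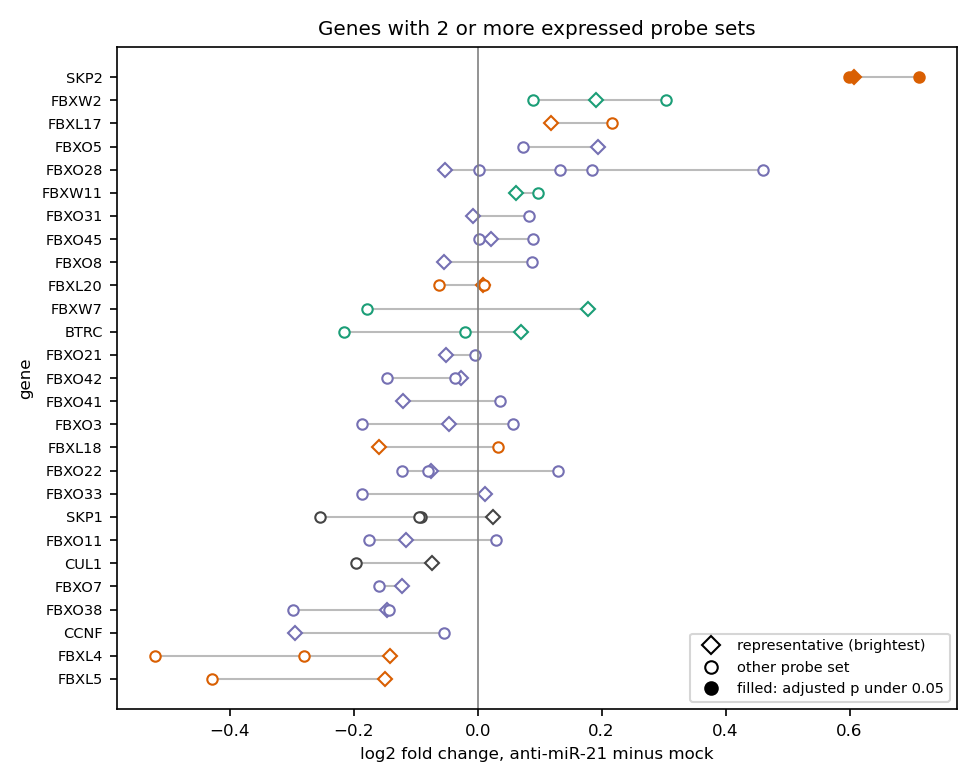
Log2 fold change of every expressed probe set for the 27 member genes that have 2 or more, with diamonds for the brightest probe set of each gene, circles for the others, and filled symbols for an adjusted p under 0.05. The 3 SKP2 points sit together at 0.60 to 0.71, while BTRC, FBXW7 and FBXO28 spread across 0.

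In all, 17 member genes had no expressed probe set. They included FBXO32 (atrogin-1), the muscle atrophy receptor, whose 7 probe sets had means of 1.84 to 2.81, the muscle gene FBXO40 at 2.58 and 2.96, and FBXO2, which binds glycoproteins in neurons, at 1.75 and 3.28. The others were FBXL8, FBXL22, FBXO15, FBXO24, FBXO27, FBXO36, FBXO39, FBXO43 and FBXW10B, together with 5 transcripts that share the names but are not F-box proteins, the noncoding RNAs FBXL19-AS1 and FBXO38-DT and the pseudogenes FBXL9P, FBXL21P and FBXW4P1. Values at that level are where GCRMA places dim probe sets, and they do not show that a gene is silent. Just outside the threshold were another FBXW7 probe set at 3.97 and probe sets of FBXL20 and FBXW4P1 at 3.83 and 3.82, and just inside were FBXO10 at 4.01, FBXO45 at 4.14 and FBXO41 at 4.22.

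Other parts of the pathway were read from 4 gene lists, with 1 more of proliferation markers. Of 32 expressed genes of the SCF machinery and its regulators, 1 was higher, 1 was lower and 30 were not called, beside 2.13% of all genes called. COPS5, the subunit of the COP9 signalosome that cuts NEDD8 from cullins, read 12.67, 12.74 and 12.63 in mock and 12.10, 12.02 and 12.01 with anti-miR-21. It fell 1.55-fold, or -0.63 ± 0.055 in log2 units (SE, limma adjusted p = 0.00536), and it stayed called with any 1 array left out. With a term for replicate number in the model, COPS5 missed the threshold (limma adjusted p = 0.0501). DCUN1D2, of the family that helps attach NEDD8 to cullins, read 6.92, 6.92 and 7.03 in mock and 7.48, 7.43 and 7.39 with anti-miR-21, a rise of 1.39-fold (log2 fold change 0.47 ± 0.056 SE, limma adjusted p = 0.0144). Averaging the expressed probe sets of each gene left the values of COPS5 and DCUN1D2 unchanged, so each call rests on 1 expressed probe set.

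The call of DCUN1D2 was lost when mock replicate 2 was left out (limma adjusted p = 0.0805), and likewise for treated replicates 2 and 3 (0.0711 and 0.0611). UBE2F, an enzyme that carries NEDD8, had -0.22 and missed the threshold (limma adjusted p = 0.0836). CKS1B, the partner of SKP2, had -0.02 with a 95% interval of -0.16 to 0.11, and the RING subunit RBX1 had -0.11 with an interval of -0.26 to 0.04; both were named after their values were seen.

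None of the 7 other cullins was called on its representative, with CUL5, CUL4A and CUL4B at 0.10, 0.12 and -0.05 (limma adjusted p = 0.384, 0.526 and 0.713). A dimmer CUL5 probe set, 203532_x_at, named after its values were seen, read 6.95, 6.83 and 6.87 in mock and 7.91, 8.14 and 8.02 with anti-miR-21. It rose 2.20-fold (log2 fold change 1.14 ± 0.072 SE, limma adjusted p = 0.00196). The x in its name marks probes that can bind unrelated transcripts, and the remaining expressed CUL5 probe set had 0.13. The 3 expressed F-box genes that go by other symbols, KDM2B, LMO7 and KDM2A, had -0.12, -0.08 and 0.03 (limma adjusted p = 0.427, 0.552 and 0.848).

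Transcripts of known SCF substrates were tested as messengers, since the arrays do not measure the proteins that these ligases remove. Of 40 expressed genes, 2 were higher, 1 was lower and 37 were not called, beside 0.913% of all genes called higher and 1.22% lower. BCL2L11 (BIM), a pro-apoptotic protein, read 7.61, 7.59 and 7.76 in mock and 7.03, 6.73 and 6.73 with anti-miR-21, a fall of 1.77-fold (log2 fold change -0.82 ± 0.097 SE, limma adjusted p = 0.0144). Its other 2 expressed probe sets had -0.22 and -0.01 and were not called. BCL6, a transcriptional repressor, rose 1.27-fold (0.34 ± 0.052 SE, limma adjusted p = 0.028), and WEE1, a kinase that restrains CDK1, rose 1.28-fold (0.36 ± 0.063 SE, limma adjusted p = 0.0466).

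The calls of BCL6 and WEE1 were lost with any 1 array left out (limma adjusted p = 0.0522 to 0.129 and 0.0541 to 0.166), and that of BCL2L11 with any array left out other than the first replicate of either group (0.0566 to 0.0669). The representative of CDKN1B, the substrate of SKP2, had -0.16 with a 95% interval of -0.42 to 0.09, and that of CCND1, the cyclin recognised by FBXO4, had 0.07 with an interval of -0.04 to 0.18. Both were named after their values were seen.

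**Figure D5:**
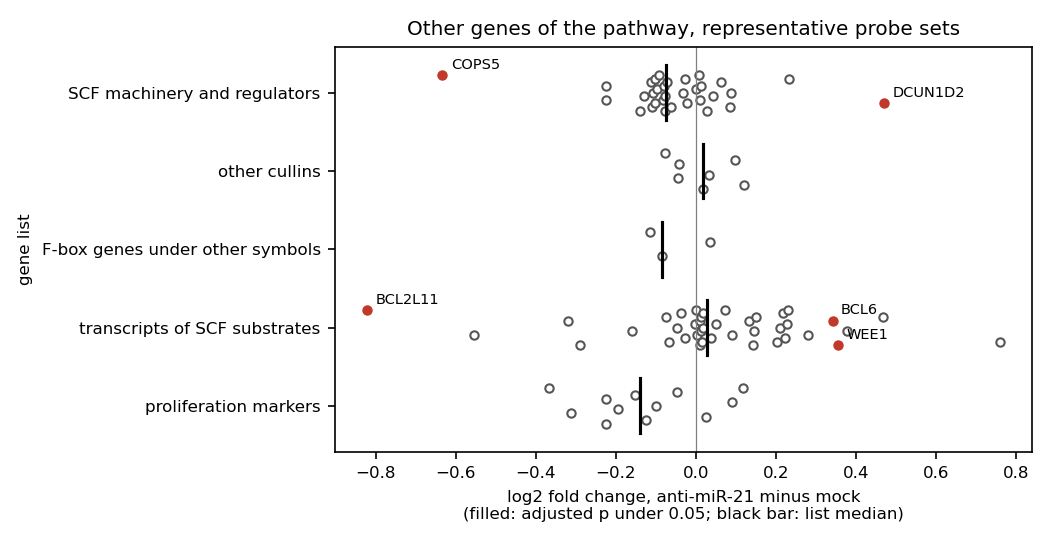
Log2 fold change of the representative probe set for each expressed gene in 5 lists, with filled red points for an adjusted p under 0.05 and a black bar for the list median. COPS5 at -0.63 and DCUN1D2 at 0.47 were called in the machinery list, and BCL2L11, BCL6 and WEE1 among substrates.

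SKP2, CCNF and FBXO5 are transcripts known to vary through the cell cycle, so proliferation markers are given beside them. None of 12 was called, 3 had a positive log2 fold change and the median was -0.14, with CCNB1, TOP2A and MCM6 at -0.22, -0.37 and -0.19 (limma adjusted p = 0.0858, 0.133 and 0.139). The summed values of the list, taken back from the log2 to the linear scale, ran from 124871 to 127901 in mock and from 116814 to 120181 with anti-miR-21, lower in every treated array. The representative of CCNF was also lower in every treated array, without a call. SKP2 was higher in every treated array, and the groups overlapped for FBXO5. The part of proliferation in these values was not tested.

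Across all probe sets the arrays were similar in level, with 22277 to 22591 probe sets at or above 4. On the first principal component the mock arrays spanned -19.95 to -7.25 and the treated arrays 3.51 to 20.11; the value of 3.51 belonged to anti-miR-21 replicate 1, although its SKP2 and FBXO4 values were those of the treated group. Of 9 hepatocyte markers on the array, 3 were expressed by the threshold of 4, SERPINA1 at 11.92, AFP at 4.22 and TF at 4.02, while ALB, APOA1, APOB and TTR were at 2.16 to 2.85. Of 9 endothelial markers 3 were expressed, CAV1 at 15.15, ENG at 10.36 and TEK at 4.66, while PECAM1, CDH5 and VWF were at 2.27 to 3.02. Of 5 epithelial markers 4 were expressed, among them KRT18 at 15.17, while CDH1 was at 2.39, and of 6 mesenchymal markers 5 were expressed, among them VIM at 15.71, while COL1A2 was at 2.51. Of 3 leukocyte markers CD14 alone passed, at 5.30.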

How the data were processed

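The authors deposited log2 expression values for 6 single-colour arrays, computed by GCRMA according to the submitters' processing notes, whose release and options are not stated there. No further normalization was applied, and no scanner file was used. Gene names came from the array's annotation table, and all 163 member probe sets matched a RefSeq gene (GRCh38.p14) by Entrez identifier. Control probe sets (62) and probe sets with a mean log2 under 4 were left out. Groups of 3 arrays were compared with limma 3.58.1 in R 4.3.3 (lmFit, eBayes, two-sided, no covariates). Benjamini-Hochberg adjustment ran over 22408 probe sets, with a threshold of 0.05. The small number of arrays limits precision. Since the labels do not say how separately the cultures were grown, p-values reflect only the spread among these samples, which may be technical.

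Members and lists were chosen with earlier results of these data known. Named genes were every called member, SKP1, CUL1, BTRC, SKP2, CCNF, FBXW7, FBXW11 and FBXO5, the 4 genes of smallest p in each family, and the 3 of smallest p in each pathway list. Most others are marked. Not marked are genes named for a wide interval, for lack of an expressed probe set or for lying near the threshold. Cell type markers are not marked either, and their examples were picked from the marker lists after their values were seen. On simulated arrays of 22408 probe sets, limma recovered 86 of 100 changes of 1.5-fold and 99 of 100 of 2-fold, with 8 false calls. The simulated noise was normal and independent, with limma's own moderated variances and no effect shared across an array. These counts therefore do not give the power or error rate of the real arrays. Alternatives varied the filter, the moderation, the normalization, a replicate block, the probe set used for a gene, the probe set type and each array left out. RefSeq promoters and the microRNA were printed from supplied tables.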

Additional observations from a re-analysis of the deposited data

How the results depend on the processing

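The counts of member probe sets and genes called (3 and 1 higher, 1 and 1 lower) were the same without a filter, with a filter at 6, with the trend and robust setting, with median centring, with quantile normalization and with any 1 array left out. With only unshared probe sets, 0 were higher, because every SKP2 probe set is of the shared type. The labels do not say whether the replicate numbers pair the cultures. Deviations of same-numbered arrays from their group means were not positively correlated (-0.36, -0.27 and -0.002), which cannot show how the cultures were set up. With the replicate block 1 member probe set and 0 genes were higher, the adjusted p of 2 SKP2 probe sets being 0.0554, and 0 of the 5 list genes stayed called, with COPS5 at 0.0501; FBXO4 stayed called (0.0324). The block reduced calls over all probe sets from 486 to 91. The 5 list genes called became 8 with probe sets averaged per gene, where among named genes CUL5 (limma adjusted p = 0.0408) and UBE2F (0.0494) passed and BCL6 (0.153) did not, and 1 to 4 with 1 array left out. WEE1 was lost without the filter (0.0691). The trend and robust setting gave calls to UBE2F (0.0461) and CCNB1 (0.033). The cause of these changes was not tested, and no direction reversed for any called result.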
